A study of Arabidopsis thaliana with 17 samples.

Results

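The chloroplast genome transcripts of Arabidopsis root cells were followed through isolation, bioprinting and culture. Members were chosen as the entries of the authors' deposited table whose single gene ID starts with ATCG, the prefix of chloroplast loci, and 127 of 33201 entries met that rule. Another 3 entries join 2 chloroplast IDs each and are not members, but they are given beside the members. The members are 80 protein-coding genes, 37 tRNA genes, 8 rRNA genes and 2 unnamed reading frames.

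Bioprinted constructs, in which isolated root cells are printed as a 3D culture, were set against the isolated cells themselves, which served as the control. All 17 libraries come from the genotype pSCR:SCR-mCherry, in which the SCR promoter drives the SCR protein fused to a red fluorescent protein. The groups are meristematic constructs (n = 3) and meristematic isolated cells (n = 3), differentiated constructs (n = 3) and differentiated isolated cells (n = 3), all at day 0, and differentiated constructs at day 1 (n = 3) and day 3 (n = 2). The series was described as 3 independent experiments, and the sources used here do not state plant age. RNA was selected for poly(A) tails before library making. The gene-by-gene values below are the authors' pooled FPKM, fragments scaled to transcript length and to the mapped total of a library, with 1 value per group and therefore no SD or n. A gene was tested where its FPKM was at least 1 in 1 or both groups of a comparison, and it was called where the authors' q-value was also under 0.05. Sequencing depth is unknown from these files.

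Plastids keep a small genome of their own, which encodes part of the photosynthetic complexes, part of the plastid ribosome, rRNAs and tRNAs. It is transcribed by a bacterial-type RNA polymerase whose core subunits it encodes, and by phage-type polymerases encoded in the nucleus, which are known for serving housekeeping genes. In root cells plastids are mostly non-green, and transcripts for photosynthesis are low there. Most plastid mRNAs lack the stable poly(A) tail of nuclear mRNAs, and a tail added in the plastid marks RNA for decay, so a poly(A) library samples them incompletely.

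The labels were checked against a few root genes picked after their values were seen. SCR, the endodermis regulator carried by the transgene, lay between 6.88 and 14.8 FPKM in the 6 groups, and EXPA7, a root hair wall gene, between 16.2 and 126 FPKM. At day 0 EXPA7 had 126 FPKM in meristematic and 78.5 in differentiated cells, and 61.4 and 47.0 in the constructs. COBL9, another root hair gene, had 10.3 and 8.19 FPKM in cells and 3.71 and 2.46 in constructs, in the same order of tissues. The root meristem regulators PLT1 and PLT2 also went against the tissue names. PLT1 had 0.501 FPKM in meristematic constructs and 1.14 FPKM in differentiated constructs, and PLT2 had 1.16 and 2.33 FPKM in the same order of groups. "Meristematic" and "differentiated" are therefore used below as the names the samples carry.

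Chloroplast transcripts were few, and the summed FPKM of the protein-coding members was mostly on ribosomal protein genes. Of the 127 members, 49 reached an FPKM of 1 in some group, 11 did so in every group, 15 reached 10 in some group, and 49 were listed at 0 throughout. The 80 protein-coding members summed to 993 FPKM in meristematic constructs and 515 in meristematic cells. The sum was 624 FPKM in differentiated constructs at day 0 and 434 in differentiated cells, and the constructs stood at 208 at day 1 and 133 at day 3. These sums are 0.0180% to 0.102% of all FPKM in a group.

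The largest share came from a single stretch of the genome. In the RefSeq annotation, 11 genes stand next to each other on 1 strand from rpl23 to rpoA, among them rpl2, rps19, rpl22, rps3, rpl16, rpl14 and rpl36. All but rpoA encode plastid ribosomal proteins, and rpoA encodes the alpha subunit of the plastid's own RNA polymerase. The 9 of them that are single entries carried 78.9% of the protein-coding sum in meristematic constructs and 68.4% in meristematic cells. Their share was 83.7% in differentiated constructs and 70.0% in differentiated cells at day 0, then 77.5% at day 1 and 56.6% at day 3 in constructs. Levels within the stretch were uneven, since rpl2 and rpl23, which both have a second copy elsewhere in the genome, stayed below 1 FPKM in every group.

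**Figure D1:**
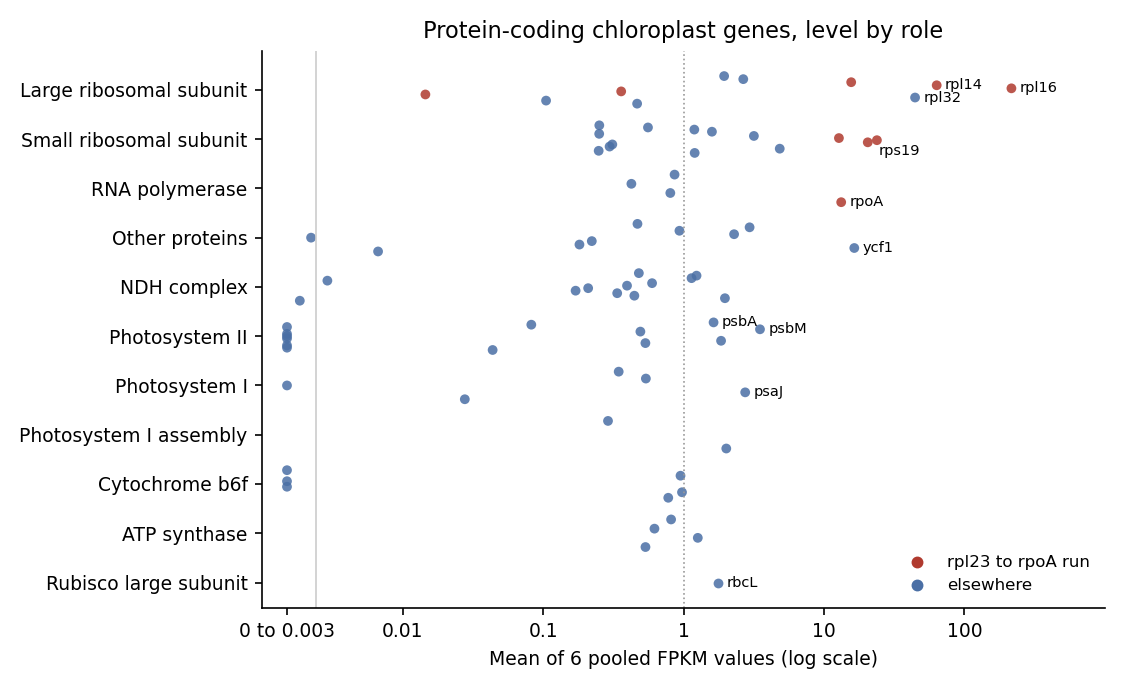
Each point is 1 of the 80 protein-coding chloroplast genes, placed by the mean of its 6 pooled FPKM values on a log scale and sorted by role, with means of 0 to 0.003 drawn left of the grey line and the dotted line at 1 FPKM. Genes of the rpl23 to rpoA run (red) hold most of the high positions, and the photosynthesis genes drawn have means below 4 FPKM. Joined entries are not drawn, among them that of atpE and atpB with a mean of 125 FPKM.

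Among large-subunit ribosomal genes rpl16 was the highest protein-coding member. It had 489 FPKM in meristematic constructs and 196 in meristematic cells, 301 in differentiated constructs and 192 in differentiated cells at day 0, and 85.8 and 34.9 in constructs at day 1 and day 3. This single gene made up 49.2% of the protein-coding sum in meristematic constructs, and 26.2% in day 3 constructs. Its neighbour rpl14 had 128 and 57.2 FPKM in meristematic constructs and cells, 90.4 and 58.9 in differentiated constructs and cells, and 32.4 and 14.7 at day 1 and day 3. The FPKM of both genes was thus greater in constructs than in cells at day 0 and smallest at day 3. Outside the stretch, rpl32 had 96.7 and 80.8 FPKM in meristematic constructs and cells, 13.9 and 44.4 in differentiated constructs and cells, and 12.6 and 19.0 at day 1 and day 3.

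The 14 small-subunit entries were led by genes of the same stretch. For rps19 the values were 41.4 and 17.6 FPKM in meristematic constructs and cells, 32.4 and 16.6 in differentiated constructs and cells, and 4.05 and 11.03 at day 1 and day 3, so that day 3 stood above day 1. The entry that joins the overlapping rps3 and rpl22 was also higher in constructs than in cells at day 0, and it was lowest at day 3. It had 78.5 and 39.2 FPKM in meristematic constructs and cells, 80.7 and 35.7 in differentiated constructs and cells, and 25.01 and 15.9 at day 1 and day 3.

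Of the 4 polymerase subunits, only rpoA stood well above 1 FPKM. It had 27.9 FPKM in meristematic constructs and 13.5 in meristematic cells, 13.9 in differentiated constructs and 10.03 in differentiated cells, and 9.03 and 5.31 at day 1 and day 3. The genes rpoB and rpoC2, for the beta and beta'' subunits, lie elsewhere in the genome and stood lower. In the same order of groups rpoB had 1.38 and 0.720, 0.830 and 0.528, and 0.710 and 0.662 FPKM, and rpoC2 had 1.34 and 0.869, 1.44 and 0.549, and 0.250 and 0.734 FPKM. Among the other proteins, ycf1 (ATCG01130), a subunit of the inner envelope protein import machinery, was as high as rpoA. It had 36.2 and 12.7 FPKM in meristematic constructs and cells, 26.4 and 11.5 in differentiated constructs and cells, and 6.13 and 5.87 at day 1 and day 3. A second, shorter copy of ycf1 at the other edge of the inverted repeat (ATCG01000) lay between 0.0470 and 0.626 FPKM, and how reads were divided between the 2 copies is not known. The lipid synthesis gene accD, for a subunit of acetyl-CoA carboxylase, had 3.04 and 4.32 FPKM in meristematic constructs and cells, 3.32 and 4.23 in differentiated constructs and cells, and 1.88 and 0.952 at day 1 and day 3. The protease gene clpP had 3.17 and 2.33, 4.16 and 2.06, and 1.71 and 0.320 FPKM in the same order, and both were lowest at day 3.

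Most of the 43 photosynthesis members, NDH subunits included, were low. Of them, 20 reached 1 FPKM somewhere, 10 were listed at 0 throughout, and their sum lay between 15.3 FPKM (day 1) and 44.5 FPKM (differentiated cells). These sums leave out the entry joining atpE and atpB, which exceeded the sum of the photosynthesis members in every group but day 3. That entry had 256 FPKM against 30.6 in meristematic constructs, and 13.0 against 19.6 at day 3. Among single entries, the photosynthesis share of the protein-coding sum was 3.09% in meristematic constructs and 6.22% in meristematic cells. It was 4.93% in differentiated constructs and 10.3% in differentiated cells at day 0, and 7.37% and 14.7% at day 1 and day 3. Both the level and the course of these shares depend on leaving out the atpE and atpB entry. Shares with joined entries were not computed, so no rise of photosynthesis transcripts as a whole can be read from them. The value for differentiated cells rests on psbM, a very short gene at 21.0 FPKM there and listed at 0 in the other 5 groups, and without it the share was 5.69%. The median of mean FPKM was 0.447 over the photosynthesis members and 1.40 over the 24 ribosomal protein members.

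Among single photosynthesis genes psbM alone reached 10 FPKM in any group. The gene psbA, for the D1 reaction centre protein of photosystem II, had 1.16 and 1.33 FPKM in meristematic constructs and cells, 0.786 and 0.714 in differentiated constructs and cells, and 2.64 and 3.19 at day 1 and day 3. The gene rbcL, for the large subunit of Rubisco, had 1.13 and 2.08 FPKM, 1.47 and 1.46, and 2.28 and 2.13 in the same order. Both are among the most abundant transcripts of green leaves, and here each stood below 4 FPKM. The photosystem II gene psbE, for a cytochrome b559 subunit, had 9.43 and 0.201 FPKM in meristematic constructs and cells, was listed at 0 in differentiated constructs, and had 0.0502 in differentiated cells and 0.480 and 0.947 at day 1 and day 3.

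The photosystem I core genes psaA and psaB did not reach 1 FPKM. In meristematic constructs and cells, differentiated constructs and cells, and at day 1 and day 3, psaA had 0.400 and 0.426, 0.799 and 0.563, and 0.269 and 0.780 FPKM. In the same order psaB had 0.206 and 0.491, 0.303 and 0.379, and 0.277 and 0.416 FPKM. The short photosystem I gene psaJ was more uneven, with 1.04 and 4.38, then 9.09 and 1.99 FPKM at day 0, and listed at 0 at day 1 and day 3. Of the photosystem I assembly factors, ycf4 had 1.54 and 2.73, 3.17 and 2.93, and 1.21 and 0.519 FPKM, and ycf3 had 0.0486 and 0.542, 0.324 and 0.393, and 0.250 and 0.182 FPKM.

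Of the 12 NDH entries, for subunits of the complex that carries cyclic electron flow, 6 reached 1 FPKM. The highest was ndhH, with 3.66 and 1.43 FPKM in meristematic constructs and cells, 3.25 and 1.71 in differentiated constructs and cells, and 0.501 and 1.28 at day 1 and day 3. In the same order ndhK had 0.593 and 1.47, 2.40 and 1.20, and 0.0843 and 1.68 FPKM, and ndhC had 1.36 and 1.68, 2.38 and 1.05, then 0.379 FPKM at day 1 and 0 at day 3. All 3 were lower at day 1 than in day 0 constructs. Of the cytochrome b6f genes, petA had 0.828 and 1.67, 0.694 and 1.5001, and 0.524 and 0.499 FPKM in that order. For petB the values were 2.14 and 0.991, 0.351 and 1.102, and 1.17 and 0.0990 FPKM, and for petD 0.768 and 1.65, 0.260 and 0.646, then 1.35 at day 1 and 0 at day 3. The entry joining psbD and psbC, neighbouring photosystem II genes, lay between 0.840 and 2.23 FPKM.

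The ATP synthase genes split by entry. The 4 single members atpA, atpF, atpH and atpI did not exceed 2.76 FPKM. In meristematic constructs and cells, differentiated constructs and cells, and at day 1 and day 3, atpA had 0.859 and 1.103, 1.04 and 1.04, and 0.441 and 0.414 FPKM. In the same order atpF had 1.20 and 0.713, 0.535 and 0.749, and 0.436 and 0.0964 FPKM, and atpH had 1.25 and 1.36, 0.0937 and 2.76, and 0.960 and 1.15 FPKM. In contrast, the entry joining atpE and atpB, the epsilon and beta subunits, was second only to rpl16 among protein-coding entries in the day 0 groups. It had 256 and 169 FPKM in meristematic constructs and cells, 160 and 127 in differentiated constructs and cells, and 24.4 and 13.0 at day 1 and day 3. The sources used here do not state how fragments were assigned within joined entries, which makes this level uncertain.

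Very short genes moved between 0 and high values from group to group. The aspartate tRNA gene trnD was listed at 0 in 5 groups and at 3024 FPKM at day 3, where it was 86.2% of all chloroplast FPKM. A glycine tRNA gene, trnG (ATCG00310), was at 350 FPKM at day 3 only, and trnH was at 138 FPKM in meristematic constructs only. The psbM value of differentiated cells is of the same kind. The number of fragments behind these values is not known, and the sums over protein-coding members leave the tRNAs out. A serine tRNA gene, trnS (ATCG00290), was at 22.2 FPKM at day 1 only, and the other 33 tRNA genes were listed at 0 throughout. The rRNA genes did not exceed 1.87 FPKM, a value of a 23S gene (ATCG01180) at day 1. That gene had 0.861 and 1.55 FPKM in meristematic constructs and cells, 0.862 and 0.647 in differentiated constructs and cells, and 0.915 at day 3. Its second copy (ATCG00950) had 0.712 and 1.24, 0.687 and 0.585, and 1.43 and 0.805 FPKM in the same order, with day 1 before day 3. A 16S gene (ATCG01210) had 0.576 and 0.684, 0.432 and 0.390, and 1.16 and 0.778 FPKM. All 3 were higher at day 1 than at day 3.

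Printing was examined first in meristematic tissue. In constructs, 5 genes of the stretch and ycf1 were higher than in isolated cells, and no member was lower. Log2 ratios in the authors' deposited table among these included 1.32 for rpl16 (q = 0.000551) and 1.16 for rpl14 (q = 0.00509). They were 1.04 for rpoA (q = 0.0105) and 1.51 for ycf1 (q = 0.000551), again from the authors' deposited table. The 6 called members are 15.0% of the 40 members tested, against a background of 10.4% of all entries called in either direction, 1.86% higher and 8.52% lower. The joined rps3 and rpl22 entry was called higher as well, with 1.00 (q = 0.0201) by the authors' deposited table, and rps19 at 1.23 was not called (q = 0.0671).

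None of the 15 photosynthesis members tested was called in either direction. Of 14 with a ratio, 4 were above 0, with a median log2 ratio of -0.33. The joined entries of atpE and atpB (0.60, q = 0.317) and of psbD and psbC (0.43, q = 0.617) were above 0 and not called in the authors' deposited table. The median over all 37 members with a ratio was 0.46, against -0.14 over all entries tested. Within the stretch the median was 1.23, with 6 of 7 ratios above 0; the exception was rpl36, a very short gene, at 25.9 FPKM in constructs and 37.5 FPKM in cells. Photosynthesis and stretch genes were not tested against each other.

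In differentiated tissue the day 0 constructs had 4 members higher than the isolated cells and none lower, of 32 tested. The ratios, on the log2 scale and from the authors' deposited table, included 1.20 for ycf1 (q = 0.00144) and 1.39 for the polymerase subunit gene rpoC2 (q = 0.0208). Of all entries, 12.5% were called in either direction, 5.08% higher and 7.38% lower, so the share of members called, 12.5%, was no greater than the background, and all 4 calls were higher. Both rpl16 at 0.65 (q = 0.0939) and rpl14 at 0.62 (q = 0.155) were not called in the authors' deposited table, while the rps3 and rpl22 entry was called at 1.18 (q = 0.00623). The 6 stretch genes with a ratio were all above 0, with a median of 0.81, and the median over members was 0.54 against -0.12 over all entries.

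Of the 8 ribosomal genes tested outside the stretch, none was called after printing of differentiated cells, and 3 ratios were above 0 and 5 below. For rpl32 the authors' deposited table gave a log2 ratio of -1.68 (q = 0.207), for rps18 one of -1.21 (q = 0.396) and for rpl33 one of -1.34 (q = 0.538). It gave 1.47 for a copy of rps7 (ATCG01240, q = 0.212) and 1.03 for rps15 (q = 0.412). None of the 12 photosynthesis members tested was called, and the median of 11 ratios was 0.11. Whether the printing difference differs between the 2 tissues was not tested.

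**Figure D2:**
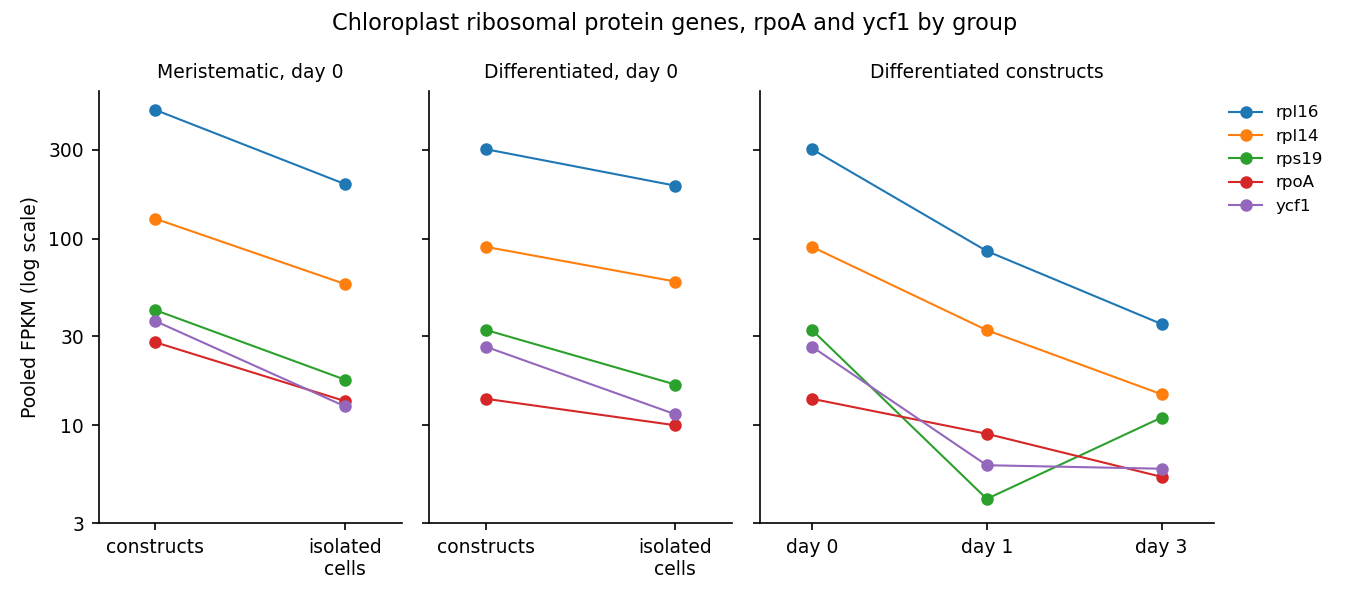
Pooled FPKM on a log scale for 4 genes of the rpl23 to rpoA run and for ycf1, in constructs and isolated cells of each tissue at day 0 and in differentiated constructs at day 0, day 1 and day 3. All 5 genes stand higher in constructs than in cells in both tissues, and all but rps19 are lowest at day 3.

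Few members were called between the tissues. In isolated cells, meristematic against differentiated, none of 36 members tested was called, while 7.75% of all entries were called, 4.63% higher and 3.12% lower. The smallest q-value in the authors' deposited table was 0.0626, for a 23S rRNA gene (ATCG01180) at 1.55 FPKM in meristematic cells and 0.647 FPKM in differentiated cells, and unadjusted p-values are not in that table. The median over 32 members was 0.23, against 0.12 over all entries (-0.083 against -0.19 with all groups scaled to 1 sum), and rpl16 had a ratio of 0.03 in the authors' deposited table.

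In constructs, 3 of 35 members tested (8.57%) were higher in meristematic than in differentiated samples and none was lower, while 9.38% of all entries were called, 4.77% higher and 4.61% lower. These were rpl32 at a log2 ratio of 2.80 (q = 0.0423) and rpoA at 1.00 (q = 0.0159), both from the authors' deposited table, and psbE. The gene psbE was listed at 0 in differentiated constructs (q = 0.000551 in the authors' deposited table). Among stretch genes rpoA was the only member called. The median over 33 members was 0.46, against 0.02 over all entries.

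Most calls among members came in culture of the differentiated constructs. From day 0 to day 1, 8 of 34 members tested fell and none rose, while 32.6% of all entries were called, 16.4% lower and 16.2% higher. The share of members called, 23.5%, was thus below the background, and all of the calls were in 1 direction. Log2 ratios in the authors' deposited table included -3.00 for rps19 (q = 0.00981), -1.81 for rpl16 (q = 0.000551) and -1.48 for rpl14 (q = 0.00144). Outside the stretch they were -2.11 for ycf1 (q = 0.000551), -2.53 for rpoC2 (q = 0.00387) and -2.70 for ndhH (q = 0.0185) in the authors' deposited table. The joined entries of rps3 and rpl22 and of atpE and atpB fell too, with log2 ratios of -1.69 and -2.71 (q = 0.000551 each) from the authors' deposited table. The median over 32 members was -1.29, against 0.06 over all entries, and 24 of the 32 ratios were below 0.

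From day 1 to day 3 few members were called, 2 higher and 2 lower of 31 tested, with 14.4% of all entries called, 5.88% higher and 8.48% lower. The ribosomal gene rpl16 fell further, at a log2 ratio of -1.297 (q = 0.0103) by the authors' deposited table. The cytochrome b6f gene petD had 1.35 FPKM at day 1 and was listed at 0 at day 3 (q = 0.00221 by the authors' deposited table). The higher calls were trnD and the NDH gene ndhJ, at 2.08 FPKM at day 3, both listed at 0 at day 1. The median over 25 members was -0.33, against -0.03 over all entries.

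Over the whole culture, day 3 against day 0, 9 of 34 members tested fell and 3 rose (35.3% in all), while 42.2% of all entries were called, 21.2% lower and 21.0% higher. Among stretch genes with the smallest q-value (0.000551 each, authors' deposited table, log2 scale), rpl16 had a ratio of -3.11 and rpl14 one of -2.62, and ycf1 stood at -2.17. Also called lower were, from the authors' deposited table, rpoA at -1.39 (q = 0.0159) and accD at -1.80 (q = 0.0278). The ribosomal gene rps14, at 1.57 FPKM at day 0, and ndhC, at 2.38 FPKM at day 0, were called lower and listed at 0 at day 3. The atpE and atpB entry fell by 3.62 and the rps3 and rpl22 entry by 2.35 on the log2 scale (q = 0.000551 each) in the authors' deposited table.

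At day 1 the photosynthesis genes had ratios to day 0 close to those of the ribosomal genes, with a median of -1.31 over 10 ratios against -1.65 over 14. At day 3 the medians stood further apart. The members that rose between day 0 and day 3 were psbA, at a log2 ratio of 2.02 (q = 0.0470 by the authors' deposited table), and ndhJ and trnD, both listed at 0 at day 0. The median of 10 photosynthesis ratios was 0.01, with 5 above 0, while that of the 11 ribosomal ratios was -1.68, with 2 above 0. The median over the 26 members with a ratio was -1.34, against 0.05 over all entries. Over single entries, summed ribosomal FPKM over summed photosynthesis FPKM was 17.6 in day 0 constructs, 11.2 at day 1 and 5.00 at day 3. That ratio leaves out the joined entries, which are large beside the photosynthesis sums of 30.8, 15.3 and 19.6 FPKM on those days. The atpE and atpB entry had 160, 24.4 and 13.0 FPKM, and the rps3 and rpl22 entry 80.7, 25.01 and 15.9 FPKM. The fall of the ratio is therefore shown for single entries only. The atpE and atpB entry exceeded the photosynthesis sum at day 0 and lay below it at day 3. With joined entries the ratio was not computed, and no fall can be read for it. Day 3, day 1 and day 0 share samples across these comparisons, and the difference between the gene groups was not tested. In bulk samples, fewer cells of a type and less RNA per cell cannot be told apart.

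**Figure D3:**
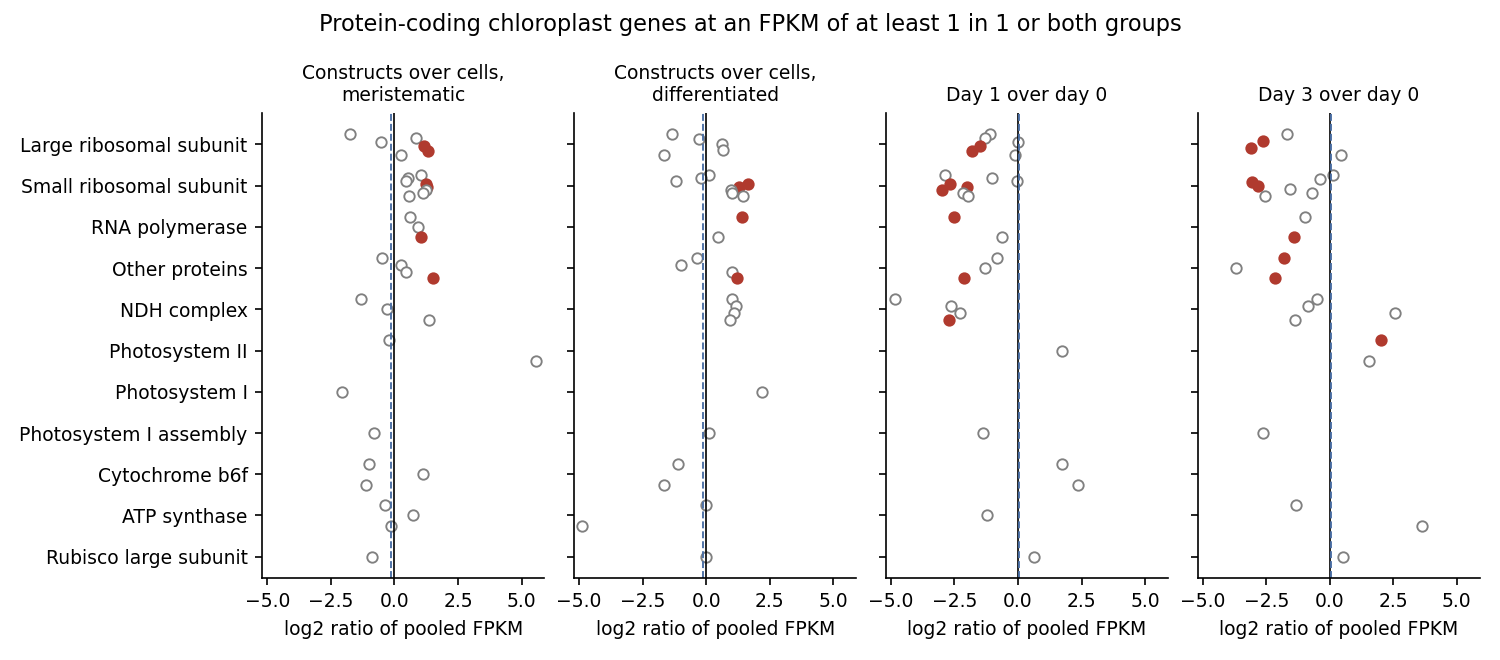
Deposited log2 ratios of pooled FPKM for protein-coding chloroplast genes by role in 4 comparisons, limited to tested genes with a value above 0 in both groups. Filled points were called (q under 0.05), the solid line is 0 and the dashed line is the median of all entries. Called ribosomal genes lie right of 0 after printing and left of 0 in culture, and psbA at day 3 is the filled point on the right.

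Libraries could be compared only over a window of lines around the stretch. In the deposited library table the values do not stay on the line of their gene but lie some lines away, so that no member has a value per library. A sum over consecutive lines does not depend on the order of values within them, but it changes where values cross their ends. It was taken over 52 lines, those from rpoA to rps19 and 20 more at each end, of which 51 are named for chloroplast genes. By the pooled values these lines hold more than the stretch. The stretch made up 57.8% to 78.4% of their summed FPKM in the 6 groups, the atpE and atpB entry 9.91% to 24.9% and rpl32 1.73% to 14.5%. Pooled sums over these lines were 677 FPKM in meristematic cells and 804 in differentiated constructs at day 0. Both lay above every library of their group, the highest being 561 and 711 FPKM, while the other groups' pooled sums lay within their library range. Whether values crossed the ends of the window was not tested, which limits the library comparisons. The choice of these lines was made after the values were seen. Sums were compared with exact two-sided permutation tests, adjusted by the Benjamini-Hochberg method over 7 comparisons. Nothing states that the replicates came from separate plants, and the p-values measure the spread between these libraries. The smallest p possible is 0.1 for 3 against 3 libraries and 0.2 for 2 against 3, so no comparison could pass 0.05.

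In meristematic constructs the 3 libraries summed to 1434, 724 and 698 FPKM, and in meristematic cells to 561, 482 and 361 FPKM. Every construct library lay above every cell library. The means were 952 ± 417 FPKM in constructs and 468 ± 101 in cells (SD, n = 3 each), a ratio of 2.04 (exact permutation p = 0.1, adjusted 0.35). The difference of 484 FPKM rests partly on the first construct library, without which it was 243 FPKM.

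In differentiated constructs the libraries summed to 577, 711 and 675 FPKM, and in differentiated cells to 400, 787 and 456 FPKM. The groups overlapped, since 1 cell library was the highest of the 6. The means were 654 ± 69.5 FPKM in constructs and 548 ± 209 in cells (SD, n = 3 each; exact permutation p = 0.4, adjusted 0.467). The difference of 107 FPKM became 231 when 10 lines were added at each end in place of 20, and the 2 groups then did not overlap (exact permutation p = 0.1). Most of this change came from the second cell library, which summed to 787 FPKM in the wider window and 429 in the narrower. The first cell library went from 400 to 337 FPKM and the third from 456 to 423. The narrower window also leaves out the line of rpl32, whose pooled values are 13.9 FPKM in constructs and 44.4 FPKM in cells. The cause of the change was not tested. In the wider window the difference was 226 FPKM without the second cell library, 32.9 without the first and 60.6 without the third.

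Between tissues the libraries were not separated. Meristematic and differentiated cells differed by -79.7 FPKM (exact permutation p = 0.7), a difference that turned to 40.0 without the second differentiated cell library and to 11.005 with 10 lines added. Meristematic constructs exceeded differentiated constructs by 298 FPKM (exact permutation p = 0.2, adjusted 0.35), and by 57.2 without the first meristematic library.

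In culture the day 0 libraries at 577, 711 and 675 FPKM were followed by 200.1, 241 and 186 FPKM at day 1 and by 79.1 and 197 FPKM at day 3. Every day 1 and day 3 library lay below every day 0 library. The mean was 209 ± 28.6 FPKM at day 1 (SD, n = 3), which is 0.320 of the day 0 mean (exact permutation p = 0.1, adjusted 0.35). At day 3 it was 138 ± 83.6 FPKM (SD, n = 2), which is 0.211 of the day 0 mean (exact permutation p = 0.2, adjusted 0.35). Day 3 and day 1 overlapped (difference -70.9 FPKM, exact permutation p = 0.4, adjusted 0.467), and that difference was -11.8 without the first day 3 library and -130 without the second.

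**Figure D4:**
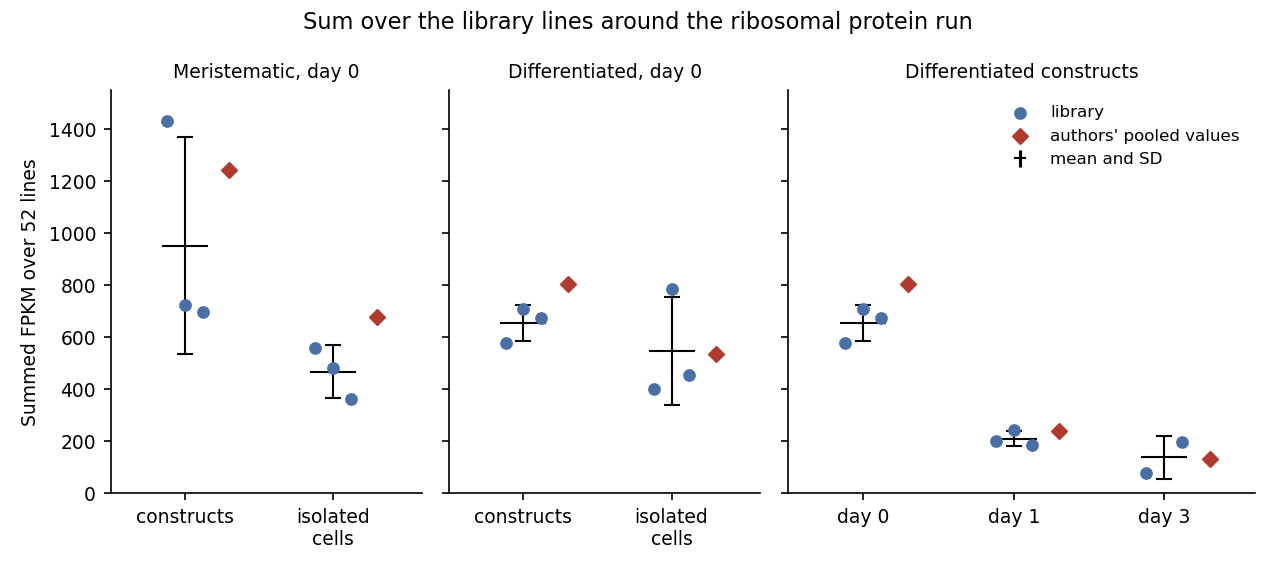
Summed FPKM over the 52 library lines around the ribosomal protein run, with 1 blue point per library, black marks for the mean and SD, and red diamonds for the authors' pooled values over the same lines. The 3 meristematic construct libraries lie above the 3 cell libraries, differentiated constructs and cells overlap, and all 5 libraries of day 1 and day 3 lie below those of day 0.

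The plastid ribosome also needs proteins encoded in the nucleus. Of 16 such genes, all tested, 3 rose (18.8%) and 1 fell between day 0 and day 3, against 21.0% of all entries higher and 21.2% lower. Their median log2 ratio was 0.67, against 0.05 over all entries, and their sum in constructs of day 0, 1 and 3 was 145, 159 and 196 FPKM. The chloroplast-encoded ribosomal proteins summed to 541, 172 and 97.8 FPKM on the same days. PRPS17 rose in the authors' deposited table by a log2 ratio of 2.90 (q = 0.0235), PRPL4 by 1.35 (q = 0.0110) and PRPS1 by 1.16 (q = 0.0121), while PRPS21 fell by 1.59 (q = 0.000551). After printing, 1 of the 16 was called in either tissue, PRPL12A, at -1.08 in meristematic constructs (q = 0.0331) and -1.44 in differentiated constructs (q = 0.0141) in the authors' deposited table. The chloroplast-encoded sum was 886 FPKM in meristematic constructs and 446 in meristematic cells, and the nucleus-encoded sum was 135 and 187 FPKM in the same order.

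**Figure D5:**
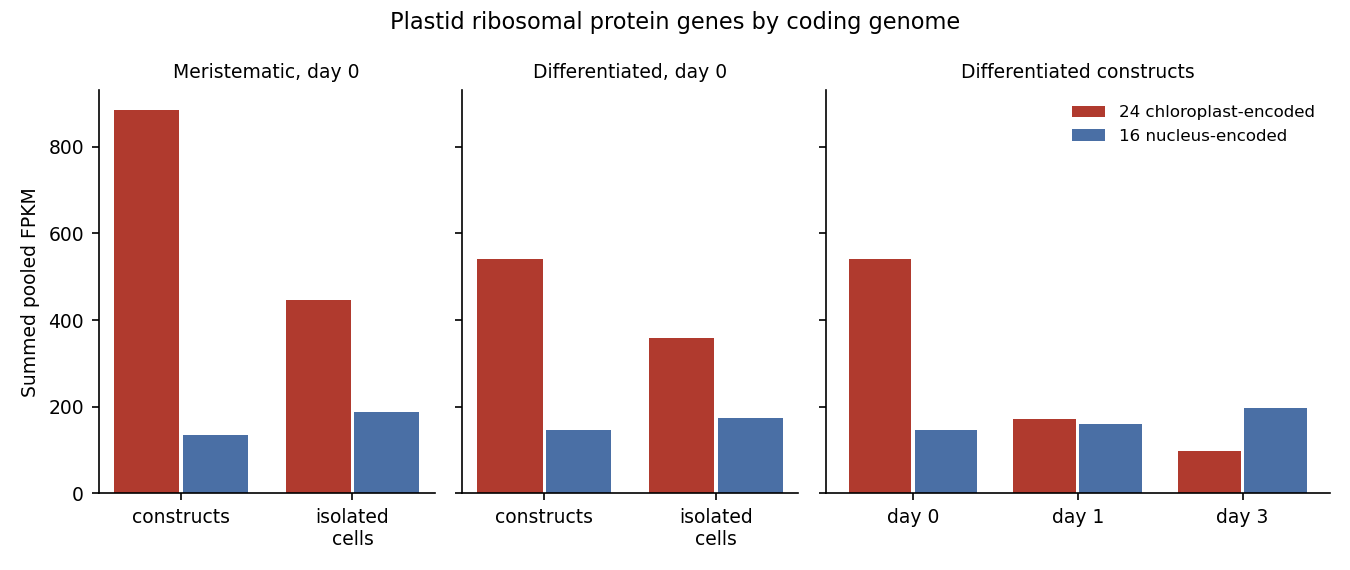
Summed pooled FPKM of 24 chloroplast-encoded (red) and 16 nucleus-encoded (blue) plastid ribosomal protein genes by group. The chloroplast-encoded sum is 541 FPKM at day 0 and 97.8 FPKM at day 3, while the nucleus-encoded sum is 145 and 196 FPKM.

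Nuclear genes for plastid transcription and RNA decay were followed as well. Of 18 genes, 16 were tested between day 0 and day 3, of which 6 rose (37.5%) and 1 fell (6.25%), against 21.0% and 21.2% of all entries. The phage-type polymerase genes RPOTP, at a log2 ratio of 1.28 (q = 0.00387), and RPOTMP, at 1.57 (q = 0.000551), were among them by the authors' deposited table. So were PNP, for polynucleotide phosphorylase, which degrades plastid RNA and adds tails to it, at 2.51 (q = 0.000551), and the RNA-processing factor gene HCF152, with 2.33 (q = 0.0115 by the authors' deposited table). The sigma factor gene SIG5, whose product directs the bacterial-type polymerase to promoters, fell by 2.04 (q = 0.000551) in the authors' deposited table. RPOTP was also called higher after printing, at 1.04 in meristematic constructs (q = 0.0295) and 1.23 in differentiated constructs (q = 0.00858) in the authors' deposited table.

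Nuclear genes also supply subunits of the photosynthetic complexes. Of 27 such genes, 14 were tested between day 0 and day 3, of which 4 fell (28.6%) and none rose, against 21.2% and 21.0% of all entries. Those that fell were PSBX, at a log2 ratio of -2.25 (q = 0.0242 by the authors' deposited table), and PSAE1, PSAN and PSBS, which were listed at 0 at day 3. As a marker of green tissue, 16 nuclear genes for light-harvesting proteins and the Rubisco small subunit were followed. They summed to 61.1 FPKM in meristematic constructs and 55.8 in meristematic cells, and to 42.1 in differentiated constructs and 49.7 in differentiated cells at day 0. Their sum was 22.2 FPKM at day 1 and 6.54 at day 3, with 5 of the 16 at 0 both in day 0 constructs and at day 3. Of 8 tested between day 0 and day 3, 1 fell (12.5%). It was LHCA4, with 23.5 FPKM at day 0 and 0.894 at day 3 (log2 ratio -4.71, q = 0.0271 by the authors' deposited table), and the part of this decline in the chloroplast values was not tested. GLK2, a regulator of greening, was lower in differentiated constructs, at 1.22 FPKM, than in differentiated cells, at 4.84 FPKM (log2 ratio -1.99, with q = 0.00509, by the authors' deposited table). Of the other greening regulators, HY5 was tested and not called after printing in either tissue, and GLK1, GNC and CGA1 stayed below 1 FPKM and were not tested. Between day 0 and day 3 HY5 fell from 33.1 to 13.6 FPKM (log2 ratio -1.28, q = 0.00355 by the authors' deposited table). GLK2 was not called there (q = 0.0637).

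The mitochondrial genome offers a comparison within the same libraries. All its entries, of which 138 carry a single ID, summed to 11820 FPKM in meristematic constructs and 4636 in meristematic cells. In differentiated constructs and cells at day 0 they summed to 12330 and 2561 FPKM. In culture the mitochondrial sum stood at 7427 FPKM on day 1 and 12109 FPKM on day 3. The chloroplast protein-coding sum was 624 FPKM at day 0 and 133 at day 3. Over all chloroplast members, tRNA and rRNA genes included, it was 626 FPKM at day 0, 236 at day 1 and 3510 at day 3, where trnD alone had 3024. The mitochondrial sum was not split by gene type, and the organelles were not tested against each other.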

How the data were processed

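RNA of 17 libraries was enriched for poly(A) tails and read from both ends over 150 bases, per the labels' protocols. HISAT2 and Cufflinks were used, per the submitters' processing notes; the sources used here do not state versions, settings, build or use of strand. The authors deposited FPKM values per library and pooled per group, and for 7 comparisons log2 ratios (a score, since the deposited columns hold a fixed code where a group is at 0) and q-values, which they adjusted over their own table. Ratios against a group at 0 were left out, and no pseudocount was used.

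The members and gene lists were chosen with earlier results of these data known. Named with all groups' values are the 3 highest members of each protein class, members called in 3 or more comparisons, the 6 highest and the rRNA genes above 1 FPKM; other called or singled-out members were added after their values were seen. Of the members this rule names, 2 are not reported here; counts, sums and medians include them. The files give IDs without names. Names follow the standard numbering of the loci and were checked against RefSeq TAIR10.1 by name and strand order: 125 of 133 IDs matched, 8 are unnamed there and none disagreed. No sequence or coordinate is given, since the authors' build is not known.

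The planned share of all chloroplast lines per library was not used, because misplaced values stand on them: they sum to 762 to 10710 FPKM, and 15 libraries hold 100 or more on the last 2 lines, whose genes do not exceed 0.812 in the pooled values. The line sum around the ribosomal run replaced it. Only that sum, not its permutation test, was tried on pooled values moved by fewer lines than were added at each end. That trial could not show how larger shifts act. Over 335 blocks of 100 lines, same-numbered libraries deviated together in all 3 pairs only for printing of differentiated cells (correlations 0.137 to 0.342), and the replicate block changed no call. Python 3.11.15, pandas 2.3.3, numpy 2.4.6, scipy 1.17.1 and matplotlib 3.10.9 were used.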

Additional observations from a re-analysis of the deposited data

How the results depend on the processing

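Of 42 alternative counts of called members, 37 stayed within 1.5 times. With q under 0.01 the count was 3 for printing of meristematic cells, 1 for tissue in constructs and 2 for day 3 against day 1. With FPKM of at least 10 it was 2 for day 3 against day 1 and 7 for day 3 against day 0. None of 29 called ratios changed sign when all groups were scaled to 1 sum (TPM), by median-ratio factors or by quantiles. The first 2 of these shift all ratios of a comparison equally. That shift was smaller than every called ratio, so no sign could change there. Scaling to 1 sum moved the median of all entries to 0.20 for printing of meristematic cells, -0.19 for tissue in isolated cells and 0.37 for day 3 against day 0, and it turned the member median for tissue in isolated cells to -0.083; member medians are read against those. The library sum for tissue in isolated cells reversed to 5.18 with 0 lines added and to 11.005 with 10 lines added (exact permutation p = 1.0 and 0.8). Without each library in turn, the difference ranged from 32.9 to 226 FPKM for printing of differentiated cells, 243 to 611 for printing of meristematic cells, -153 to 40.0 for tissue in isolated cells, 57.2 to 425 for tissue in constructs, -484 to -417 for day 1 against day 0, -130 to -11.8 for day 3 against day 1 and -575 to -457 for day 3 against day 0. With the replicate block, exact sign-flip p-values were 0.25 to 0.75, and the differences for day 3 were -82.5 against day 1 and -505 against day 0. The cause of these changes was not tested. Other settings for the chloroplast share per library were not run, since that share was not used. The number of libraries, their unknown depth and the uneven capture of untailed RNA limit precision, and chloroplast lines above 0 ranged from 24 to 74 per library.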
